A study of Homo sapiens with 6 samples.

Results

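The genes described here are the human ZNF zinc finger genes that were expressed in Huh7, a human hepatocellular carcinoma cell line. A gene was taken when its symbol was ZNF followed by digits alone or by digits and 1 letter, and when its mean over the 6 libraries was at least 10 CPM, the counts of a gene scaled to a common library total. The members were thus chosen by their mean level over both groups, and that level is a description. The rule gave 257 genes, out of 557 symbols of that form and 37822 symbols in the deposited table. The members just inside the level were ZNF550, ZNF512B and ZNF304 at 10.1, 10.1 and 10.1 CPM, and the symbols just outside were ZNF649, ZNF555 and ZNF823 at 9.97, 9.96 and 9.90 CPM. All 257 members passed the filter on low counts, as did 448 of the 557 ZNF symbols.

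The study compared Huh7 cells infected with a lentivirus that overexpressed VPS72 with Huh7 cells infected with a FLAG control lentivirus, whose genotype is labelled WT. Each group had 3 RNA sequencing libraries, VPS72 replicates 1 to 3 and FLAG replicates 1 to 3. Both groups carried lentivirus, which was made in HEK293T cells and left on the cells for 24 h, so uninfected cells were no part of the comparison. Whether the replicates came from separate cultures is not stated, and the spread behind each p-value may therefore be technical.

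Zinc finger proteins of the C2H2 kind fold short loops around a zinc ion held by a pair of cysteines and a pair of histidines, and arrays of such fingers read DNA base by base. Many of the human genes carry a KRAB box, which recruits the corepressor TRIM28 and with it the histone methyltransferase SETDB1 and HP1 proteins, and so lays down silent chromatin, often over transposable elements. KRAB genes multiplied by tandem duplication and stand in clusters of similar neighbours, many of them on chromosome 19. Other ZNF genes have no KRAB box and serve as promoter activators, as subunits of chromatin complexes, or in RNA and ribosome work. VPS72 is a subunit of the SRCAP and TIP60 complexes, which place the histone variant H2A.Z at promoters and enhancers.

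The label of the set was checked against protein translations of the GENCODE 29 transcripts. The spacing of cysteines and histidines of a C2H2 finger was found in 249 of the 256 members that GENCODE 29 names, up to 31 times in ZNF91. The 7 without it were ZNF252P, ZNF271P, ZNF542P and ZNF767P, which RefSeq lists as transcribed pseudogenes, and ZNF703, ZNF720 and ZNF738. A KRAB pattern was found in 154 members and not in 102. ZNF875 had no entry and was left out of these classes.

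Library totals ran from 23969324 to 29091824 counts in VPS72 and from 21345279 to 25352335 in FLAG libraries, and members held 190 to 9399 counts each in VPS72 and 180 to 8145 in FLAG libraries. VPS72 mRNA averaged 1161 ± 11.5 CPM in VPS72 libraries and 24.0 ± 2.70 CPM in FLAG libraries (SD, n = 3 each), in the direction of the labels. All 10 hepatocyte markers were detected, and their summed level was 20529 to 21355 CPM of the column total in VPS72 and 18564 to 19431 CPM in FLAG libraries, with 6 of the 10 past the test, all higher. The 7 HEK293T markers summed to 13.8 to 15.6 CPM in VPS72 and 14.9 to 16.2 CPM in FLAG libraries, with NEFL at 0 in all libraries. Of these 7, 4 had enough counts to be tested and 0 passed. Markers of fibroblasts summed to at most 13.1 CPM in VPS72 and 14.3 CPM in FLAG libraries, those of immune cells to at most 14.1 and 12.6 CPM and those of endothelial cells to at most 4.88 and 4.61 CPM in VPS72 and FLAG libraries. The part of hepatocyte RNA levels in the results below was not tested. In bulk libraries fewer cells of a type and less RNA per cell cannot be told apart.

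The expressed ZNF genes lay slightly lower in the VPS72 libraries. The median log2 fold change was -0.06, or -4.03%, with 183 of 257 members below 0, against a median of -0.264% for all 14253 genes tested and 7298 of them below 0. It was -0.03 with the trend of fold change with GC content and length removed and -0.09 with library size alone as the scaling. By edgeR's quasi-likelihood test with Benjamini-Hochberg adjustment over all genes tested, 2 members, ZNF146 and ZNF507, fell and 0 rose. Of all genes tested 0.196% were called lower, 0.421% higher and 0.617% in either direction, and of the other genes of at least 10 CPM 0.283% were called lower. At an unadjusted p of 0.05, 41 members were lower and 2 higher, where 5.51% of all genes tested were lower and 6.03% higher. All 3 VPS72 libraries lay below all 3 FLAG libraries for 52 members (20.2%) and above them for 8 (3.11%), against 8.47% lower and 8.76% higher of all genes tested.

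**Figure D1:**
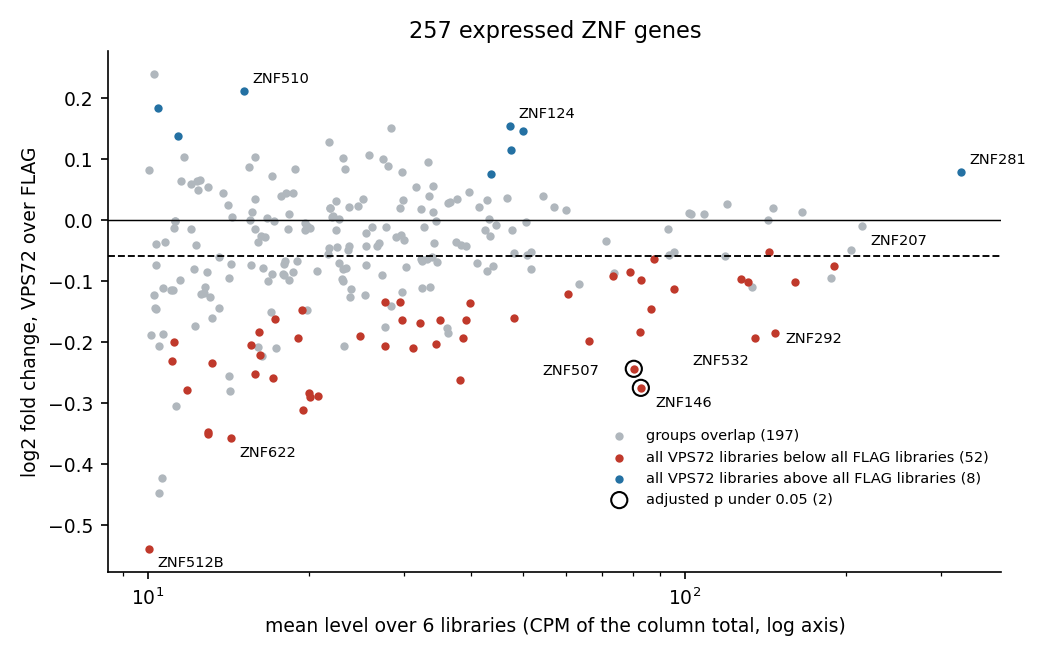
Log2 fold change of VPS72 over FLAG against the mean level (log axis) of each of the 257 expressed ZNF genes. The dashed line is the members' median of -0.06, 52 genes are lower and 8 higher with no overlap between groups, and the rings mark ZNF146 and ZNF507, the 2 past an adjusted p of 0.05.

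The members' median was below that of other genes at each level of abundance. From 10 to 15 CPM the median was -7.32% for 57 ZNF genes and -2.20% for 912 other genes. From 15 to 20 CPM it was -4.70% for 48 ZNF genes and -0.883% for 735 others, from 20 to 30 CPM -2.86% for 56 and -0.627% for 1244, and from 30 to 50 CPM -2.60% for 51 and -0.0368% for 1667. Above 50 CPM the ZNF median was -4.03% for 45 genes and that of 4279 other genes 1.37%. The medians lay farthest apart in the lowest and the highest range. Measured from the median of other genes in the same range, 182 of 257 members were negative and their median log2 fold change was -0.05.

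**Figure D2:**
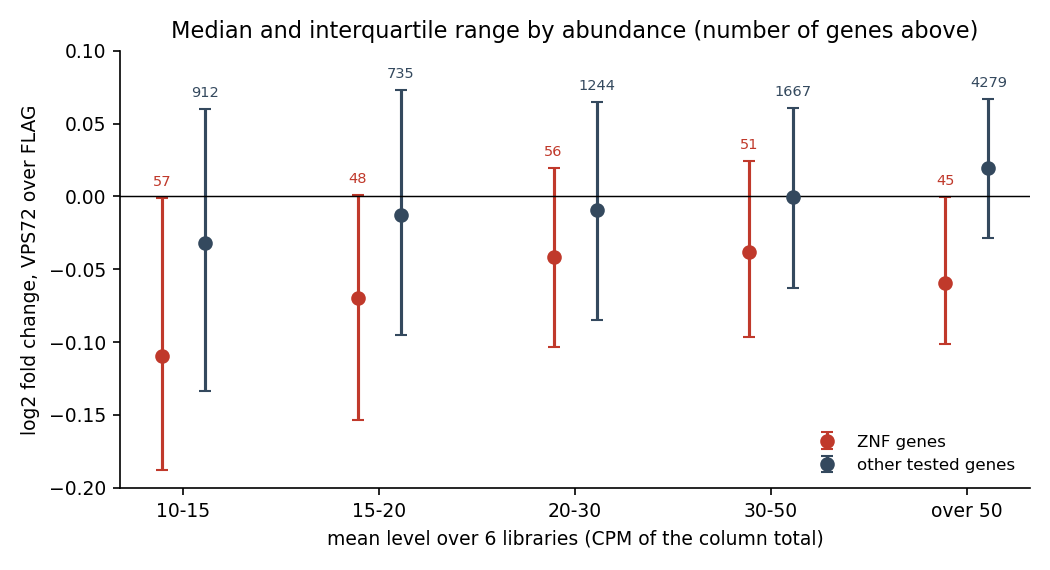
Median and interquartile range of the log2 fold change in 5 ranges of mean level, for ZNF genes and for other tested genes, with the number of genes above each bar. ZNF medians lie from -2.60% to -7.32%, below those of other genes in each range.

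Above 50 CPM, where counting error is smallest, 18 of 45 ZNF genes were lower with no overlap between groups and 2 (4.44%) higher. Of the 4279 other genes of that level 7.36% were lower and 17.2% higher, so the direction of the non-overlapping genes was the opposite one. In the 10 to 15 CPM range 14.0% of ZNF genes and 10.9% of other genes were lower without overlap. From 15 to 20 CPM these shares were 20.8% and 8.57%, and from 20 to 30 CPM 12.5% and 8.92%. Between 30 and 50 CPM they were 17.6% and 7.80%. Shares higher without overlap in these ranges were 0% to 5.88% for ZNF genes and 5.26% to 8.16% for others. The excess of lower genes was thus small from 10 to 15 and from 20 to 30 CPM. Over all levels from 10 CPM, other genes had 8.12% lower and 12.0% higher without overlap. ZNF genes varied slightly more between libraries of a group than other genes of at least 10 CPM, with a median coefficient of variation of 5.56% against 4.52% in VPS72 and 6.17% against 4.81% in FLAG libraries. The 2 sets are not matched in level, with medians of 23.6 CPM for ZNF genes and 47.8 CPM for the others.

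The 257 genes together took 0.941%, 0.937% and 0.956% of the counts of VPS72 replicates 1 to 3, against 1.01%, 1.01% and 0.995% in FLAG replicates 1 to 3. Scaled by TMM, their summed level was 9521, 9474 and 9676 CPM in VPS72 and 9982, 9969 and 9885 CPM in FLAG libraries. On either scale all VPS72 libraries lay below all FLAG libraries. The median log2 difference of members from their own mean over the 6 libraries was -0.03, -0.04 and -0.02 in VPS72 and 0.03, 0.03 and 0.02 in FLAG libraries, while that of all tested genes was 0.00 to 0.01 in every library of either group. For members without a KRAB pattern it was -0.07, -0.03 and -0.03 in VPS72 and 0.05, 0.03 and 0.04 in FLAG libraries. For members with the pattern it was 0.00, -0.04 and -0.01 in VPS72 and 0.03, 0.03 and 0.00 in FLAG libraries, and the groups were closer there.

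**Figure D3:**
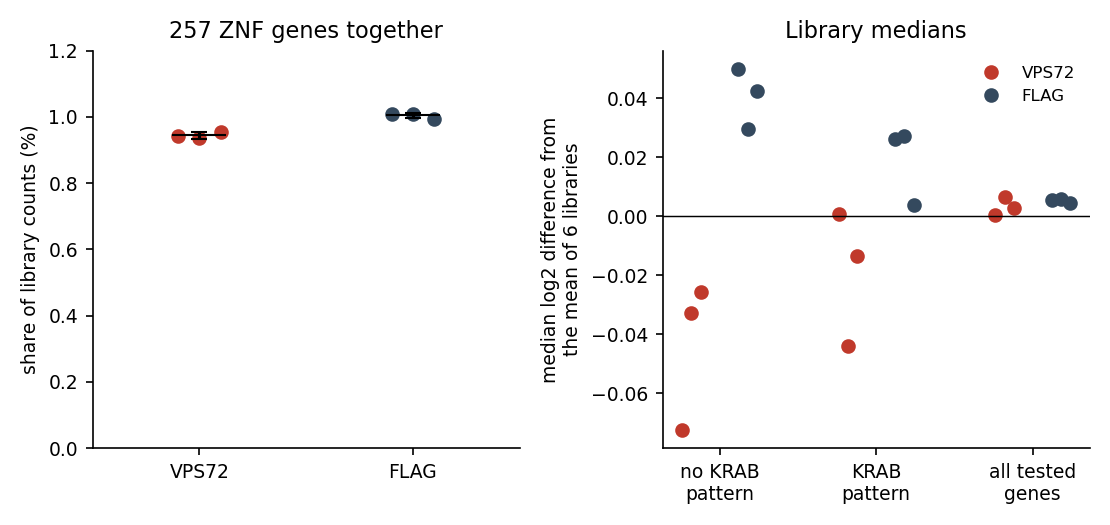
Left, the share of each library's counts in the 257 ZNF genes, with mean and SD of 3 libraries, from 0.937% to 0.956% in VPS72 and 0.995% to 1.01% in FLAG libraries. Right, the median log2 difference of each library from the mean of 6, for ZNF genes without and with a KRAB pattern and for all tested genes, which stay between 0.00 and 0.01.

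ZNF146 (NCBI gene 7705), also called OZF because its protein is little more than zinc fingers, showed the clearest fall. Its transcript had 75.3, 77.9 and 71.7 CPM in VPS72 replicates 1 to 3, against 89.2, 94.2 and 88.6 CPM in FLAG replicates 1 to 3. Every VPS72 library was below every FLAG library, and the fall was 17.3% (log2 fold change -0.27 ± 0.05, SE; edgeR, Benjamini-Hochberg adjusted p = 0.0141). ZNF507 (NCBI gene 22847), a protein with 9 matches to the finger pattern and no KRAB pattern, had 71.8, 72.9 and 76.1 CPM in VPS72 and 88.2, 86.4 and 86.7 CPM in FLAG libraries. The groups did not overlap here either, and the fall was 15.5% (log2 fold change -0.24 ± 0.05; edgeR, adjusted p = 0.0219). Both calls rest on the full set of 6 libraries. The ZNF146 call was lost in 3 of the 6 fits that left out 1 library, those lacking VPS72 replicate 1 (edgeR, adjusted p = 0.0610), VPS72 replicate 3 (0.0752) or FLAG replicate 1 (0.0773). The ZNF507 call was lost in 4, those lacking VPS72 replicate 1 (edgeR, adjusted p = 0.131), VPS72 replicate 2 (0.126), FLAG replicate 1 (0.137) or FLAG replicate 3 (0.0666). Exons of ZNF146 overlap those of ZNF565 on the opposite strand in GENCODE 29. No source used here says whether counting used strand. In all, 103 of 256 members share exon positions with another gene there, 61 of them with one on the opposite strand.

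Promoter windows are shown for the 2 genes that fell and for ZNF226 and ZNF622, which were lower without overlap and were picked after their windows had been found to hold a searched motif. Each window runs from 250 bases before to 50 bases after the gene's start in RefSeq (GRCh38.p14), written 5′ to 3′ on the gene's strand. The build behind the deposited table is not settled, and the windows were matched by symbol only. Capitals mark the motifs found, which in ZNF226 include the ETS letters read on the opposite strand. The window of ZNF146 is chr19:36214856-36215155 on the plus strand, that of ZNF507 chr19:32345360-32345659 on the plus strand, that of ZNF226 chr19:44164850-44165149 on the plus strand and that of ZNF622 chr5:16465751-16466050 on the minus strand.
ZNF146: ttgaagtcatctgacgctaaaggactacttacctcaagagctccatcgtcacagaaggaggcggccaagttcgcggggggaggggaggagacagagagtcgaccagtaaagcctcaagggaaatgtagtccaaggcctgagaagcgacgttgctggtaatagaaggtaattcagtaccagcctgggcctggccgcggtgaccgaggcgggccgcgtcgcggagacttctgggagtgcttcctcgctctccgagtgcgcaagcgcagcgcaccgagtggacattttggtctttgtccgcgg
ZNF507: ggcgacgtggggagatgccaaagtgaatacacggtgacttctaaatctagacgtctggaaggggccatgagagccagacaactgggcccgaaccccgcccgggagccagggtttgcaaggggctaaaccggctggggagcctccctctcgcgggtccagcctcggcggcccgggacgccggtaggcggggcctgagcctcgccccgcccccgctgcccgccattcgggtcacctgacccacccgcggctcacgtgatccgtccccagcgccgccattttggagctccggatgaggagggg
ZNF226: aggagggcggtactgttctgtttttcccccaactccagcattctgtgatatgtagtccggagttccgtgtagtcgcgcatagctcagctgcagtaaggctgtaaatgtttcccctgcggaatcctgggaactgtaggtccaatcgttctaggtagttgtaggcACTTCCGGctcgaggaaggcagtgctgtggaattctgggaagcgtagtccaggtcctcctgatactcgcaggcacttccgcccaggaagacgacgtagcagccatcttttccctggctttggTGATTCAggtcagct
ZNF622: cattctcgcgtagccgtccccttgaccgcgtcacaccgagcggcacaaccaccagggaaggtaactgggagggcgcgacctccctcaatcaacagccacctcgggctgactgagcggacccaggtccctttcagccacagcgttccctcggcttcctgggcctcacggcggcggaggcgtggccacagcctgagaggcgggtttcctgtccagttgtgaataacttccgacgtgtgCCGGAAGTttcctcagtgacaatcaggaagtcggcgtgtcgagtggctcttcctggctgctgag

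Windows were given for 221 of the 257 members. Each of 7 motifs was searched on both strands, and none of the 7 contains another. The longer ones are given by name. The ETS site CCGGAAGT stood in 42 of 221 member windows (19.0%), in 14 of the 44 windows (31.8%) of members lower without overlap, in 28 of the 177 windows (15.8%) of the other members and in 8.76% of the 10625 windows of tested genes. The ZNF143 site stood in 6 member windows (2.71%) and in 0.527% of the windows of tested genes, and TGACGTCA, the site of ATF and CREB proteins, in 10 (4.52%) and 3.20%. The AP-1 site TGANTCA stood in 5.88% of member windows and 4.60% of those of tested genes, the NRF1 palindrome in 2.26% and 2.32%, the YY1 site in 1.81% and 2.01%, and the palindrome bound by BANP in 0.905% and 0.922%. Among the 44 windows of members lower without overlap, TGACGTCA stood in 4, the AP-1, NRF1 and ZNF143 sites in 2 each, the YY1 site in 1 and the BANP palindrome in 0. Among the 177 others these stood in 6, 11, 3, 4, 3 and 2 windows, in the order TGACGTCA, AP-1, NRF1, ZNF143, YY1 and BANP. Of the 4 printed windows, that of ZNF226 holds the ETS and AP-1 letters and that of ZNF622 the ETS letters, while those of ZNF146 and ZNF507 hold none of the 7. Member windows had a median of 61.7% G and C, against 65.0% in windows of tested genes.

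The 10 members with the most negative fold changes among those without overlap between groups were ZNF512B, ZNF622, ZNF319, ZNF7, ZNF641, ZNF608, ZNF226, ZNF70, ZNF620 and ZNF146, and 9 of them missed the threshold. ZNF512B, a partner of the NuRD deacetylase complex, had 7.34, 8.75 and 8.53 CPM in VPS72 and 12.9, 10.4 and 12.5 CPM in FLAG libraries. Its log2 fold change of -0.54 ± 0.13 was the largest of the 257 and missed the threshold (edgeR, adjusted p = 0.0814), at 202 to 231 counts in VPS72 and 264 to 330 in FLAG libraries. Without FLAG replicate 2 it passed (edgeR, adjusted p = 0.0455). Its exons overlap the antisense gene UCKL1-AS1. ZNF622, a maturation factor of the large ribosomal subunit, had 12.6, 11.4 and 13.5 CPM in VPS72 and 16.4, 14.4 and 17.4 CPM in FLAG libraries (log2 fold change -0.36 ± 0.11; edgeR, adjusted p = 0.187). In ZNF622 the nearest libraries of the groups were close, at 13.5 and 14.4 CPM, and in ZNF512B they had 8.75 and 10.4 CPM. The KRAB gene ZNF226 had 19.1, 18.4 and 18.5 CPM in VPS72 and 23.6, 22.2 and 22.6 CPM in FLAG libraries (log2 fold change -0.29 ± 0.08; edgeR, adjusted p = 0.150). For ZNF319, ZNF7, ZNF641, ZNF608, ZNF70 and ZNF620 log2 fold changes ran from -0.35 to -0.28, with adjusted p from 0.207 to 0.323 by the same test. That all 10 were lower in 3 of 3 VPS72 libraries follows from how they were picked.

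Only 8 members were higher without overlap, and none of them passed the test. ZNF281, a factor of pluripotency and of epithelial to mesenchymal transition and the member with the most counts, had 327, 327 and 354 CPM in VPS72 and 317, 320 and 318 CPM in FLAG libraries (log2 fold change 0.08 ± 0.04; edgeR, adjusted p = 0.461). ZNF124, a KRAB gene, had 51.6, 49.6 and 48.3 CPM in VPS72 and 44.7, 43.8 and 45.8 CPM in FLAG libraries (log2 fold change 0.15 ± 0.06; edgeR, adjusted p = 0.297). ZNF852 had 52.7, 52.2 and 53.0 CPM in VPS72 and 45.8, 50.8 and 45.9 CPM in FLAG libraries. The nearest libraries of the groups were close in ZNF281 and ZNF852. The log2 fold changes of ZNF510, ZNF257, ZNF41, ZNF28 and ZNF468 were 0.21, 0.18, 0.14, 0.12 and 0.08, with adjusted p from 0.439 to 0.699 by edgeR. Exons of ZNF28 and ZNF468, which neighbour each other, overlap in GENCODE 29, so reads could be divided between them.

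**Figure D4:**
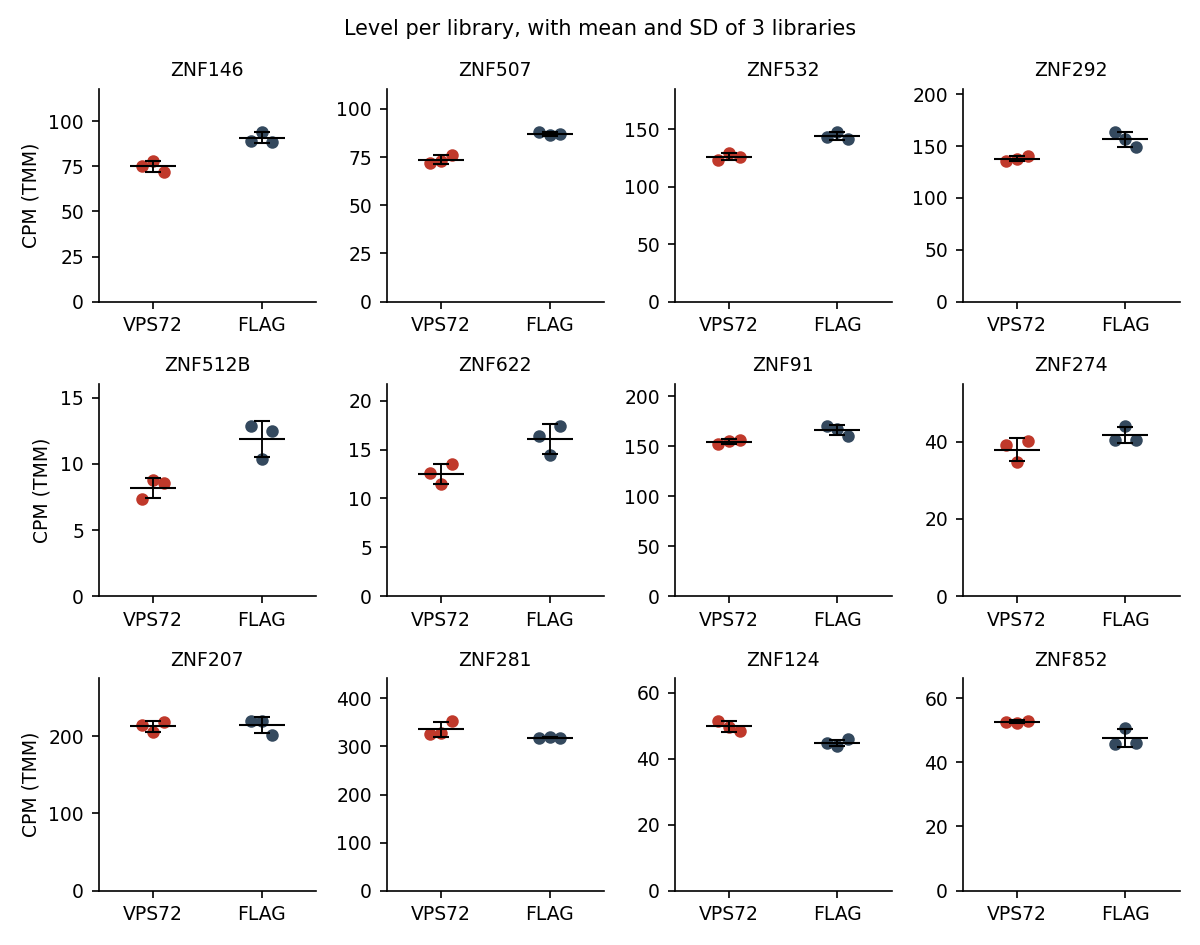
Level of 12 ZNF genes in each library (CPM scaled by TMM, axis from 0), with the mean and SD of 3 libraries, VPS72 left and FLAG right. In ZNF146, ZNF507, ZNF532, ZNF292, ZNF512B, ZNF622, ZNF91 and ZNF274 all VPS72 libraries lie below all FLAG libraries, in ZNF207 the groups overlap, and in ZNF281, ZNF124 and ZNF852 VPS72 libraries lie higher.

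By level per transcript length, the highest members were the spindle and kinetochore factor ZNF207, also called BuGZ, at 112 CPM per kb in VPS72 and 113 in FLAG libraries, and ZNF281 at 68.7 and 65.0 CPM per kb in VPS72 and FLAG libraries. The retrotransposon repressor ZNF93 came next at 48.4 CPM per kb in VPS72 and 52.2 in FLAG libraries. The median over the 256 members with a length was 6.18 CPM per kb over all libraries, and the lowest level was 1.19. These lengths are those of the GENCODE 29 transcript with the longest coding region, which need not be the form Huh7 makes. ZNF207, the best expressed by length, had 214, 205 and 219 CPM in VPS72 and 220, 220 and 202 CPM in FLAG libraries, with groups that overlapped (log2 fold change -0.01 ± 0.04; edgeR, adjusted p = 0.966). Of the 5 members with the highest CPM, ZNF638 and ZNF664 also overlapped between groups, at 201 ± 9.61 and 181 ± 10.2 CPM in VPS72 and 208 ± 3.90 and 193 ± 4.72 CPM in FLAG libraries (SD, n = 3 each). ZNF638, also called NP220, takes part in the silencing of unintegrated retroviral DNA.

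Genes of chromatin assemblies held 7 members lower without overlap among 11, and 0 passed the test. Their median was -6.46%, with 8 of 11 below 0, and 6 were lower at an unadjusted p of 0.05. Of all genes tested 8.47% were lower without overlap and 5.51% at that p, but the list is highly expressed, with a median of 103 CPM, and 18 of the 45 members above 50 CPM were lower without overlap. With DESeq2, ZNF532 and ZNF292 passed. ZNF532, ZNF592 and ZNF687 are related partners of the chromatin reader ZMYND8, and all 3 lay lower in every VPS72 library. ZNF532 had 123, 129 and 126 CPM in VPS72 and 144, 148 and 141 CPM in FLAG libraries (log2 fold change -0.19 ± 0.04; edgeR, adjusted p = 0.0512), just short of the threshold. ZNF687 averaged 28.9 ± 1.12 CPM in VPS72 and 33.5 ± 3.59 CPM in FLAG libraries, and ZNF592 185 ± 4.93 CPM in VPS72 and 195 ± 3.72 CPM in FLAG libraries (SD, n = 3 each; edgeR, adjusted p = 0.330 and 0.498). ZNF292, a very large zinc finger protein mutated in intellectual disability, had 136, 137 and 140 CPM in VPS72 and 164, 156 and 149 CPM in FLAG libraries (log2 fold change -0.18 ± 0.04; edgeR, adjusted p = 0.0791). ZNF644 and ZNF518A, partners of the G9a histone methyltransferase, had log2 fold changes of -0.10 each, with adjusted p = 0.403 and 0.401 by edgeR. ZNF532 passed in 8 and ZNF292 in 4 of the 10 alternatives that kept all 6 libraries, and each passed in 0 of the 6 fits that left out 1 library.

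Genes of transposon and imprint control, most of them with a KRAB box, had 5 of 12 members lower without overlap, 0 higher and 0 past the test by edgeR, with 4 lower at an unadjusted p of 0.05 and a median of -6.27%. Of all genes tested 8.47% were lower without overlap and 5.51% at that p, and of all members 20.2% were lower without overlap. ZNF91, which represses SVA retrotransposons, had 152, 155 and 156 CPM in VPS72 and 170, 167 and 160 CPM in FLAG libraries (log2 fold change -0.10 ± 0.04; edgeR, adjusted p = 0.337). ZNF93, which represses L1 elements, averaged 128 ± 6.65 CPM in VPS72 and 138 ± 2.93 CPM in FLAG libraries with overlap, and ZNF274, which binds the last exons of other ZNF genes and brings SETDB1 to them, 38.0 ± 2.92 CPM in VPS72 and 41.7 ± 2.05 CPM in FLAG libraries without it (SD, n = 3 each; edgeR, adjusted p = 0.366 and 0.501). ZNF587, ZNF460 and ZNF629 were the other members of this list without overlap. ZNF445, a guardian of genomic imprints, averaged 121 ± 5.89 CPM in VPS72 and 119 ± 4.07 CPM in FLAG libraries, with overlap.

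Sequence-specific activators and repressors without a KRAB box had a median of -3.66%, with 4 of 14 members lower and 1, ZNF281, higher without overlap. By edgeR 0 passed, and 2 were lower at an unadjusted p of 0.05. The shares of all genes tested were 8.47% lower and 8.76% higher without overlap and 5.51% lower at that p. The lower ones were ZNF131, ZNF335, ZNF24 and ZNF367, with log2 fold changes from -0.16 to -0.08 and adjusted p from 0.312 to 0.516 by edgeR. ZNF143, an activator of many housekeeping and small RNA promoters, averaged 26.6 ± 2.54 CPM in VPS72 and 27.3 ± 0.472 CPM in FLAG libraries (SD, n = 3 each), with overlap. The value of ZNF219 depended on 1 library, at 7.20, 9.81 and 9.54 CPM in VPS72 and 14.1, 7.06 and 15.1 CPM in FLAG libraries. Its groups overlapped through FLAG replicate 2, and it passed only without that library (log2 fold change -0.72; edgeR, adjusted p = 0.0286).

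Genes with roles in RNA, ribosomes, ubiquitin or mitosis had a median of -2.25% over 10 members. The 3 lower without overlap were ZNF622, ZNF277 and the SUMO ligase ZNF451, the last at 141 ± 1.94 CPM in VPS72 and 146 ± 3.05 CPM in FLAG libraries (SD, n = 3 each; edgeR, adjusted p = 0.686). By edgeR 0 of the 10 passed, 1 was lower at an unadjusted p of 0.05, and 0 were higher without overlap, beside 5.51% of all genes tested lower at that p and 8.47% lower and 8.76% higher without overlap.

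Members without a KRAB pattern lay lower than those with it. The median was -5.36% over 102 members without the pattern, with 30 (29.4%) lower and 2 (1.96%) higher without overlap, and -2.31% over 154 members with it, with 22 (14.3%) lower and 6 (3.90%) higher. Members without the pattern also had a higher median level, 29.7 CPM against 21.3 CPM. The medians kept this order in each range of transcript GC content, and the shares lower without overlap did not. Below 40% GC the medians were -3.43% over 22 members without and -0.368% over 51 with the pattern. From 40 to 50% they were -5.79% over 38 and -4.34% over 91, and from 50% they were -6.14% over 42 and -4.86% over 12. The share lower without overlap was 27.3% without and 7.84% with the pattern below 40% GC, and 36.8% and 16.5% from 40 to 50%. It was 10 of 42 and 3 of 12 members from 50%, where the order turned. Of all genes tested 8.47% were lower without overlap. The GC ranges did not match the levels. Median levels were 40.8 CPM without and 23.1 CPM with the pattern below 40% GC, and 37.8 and 20.7 CPM from 40 to 50%. They were closest from 50%, at 22.1 and 18.6 CPM. The difference by KRAB pattern is a description and was not tested.

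Fold changes of members were lower at higher transcript GC content. Medians were -0.977% for 73 members under 40% GC, -4.55% for 129 from 40 to 50% and -6.14% for 54 from 50%. Other genes of at least 10 CPM had medians of -0.0702%, 0.506% and 0.921% in the same 3 ranges, so their order was the opposite one. Across 256 members the Spearman correlation of GC content with the log2 fold change was -0.27, and across 8689 other genes 0.03. These are correlations across genes that share the same 6 libraries, and genes are not independent replicates. ZNF transcripts had less G and C than the tested genes as a whole, with medians of 42.8% and 48.3%, and were longer, with medians of 4066 and 2862 bases. The number of finger matches had a Spearman correlation of 0.04 with the log2 fold change, and the medians of members with 1 to 5 matches, 6 to under 13 and at least 13 were -4.29%, -3.72% and -4.22%.

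**Figure D5:**
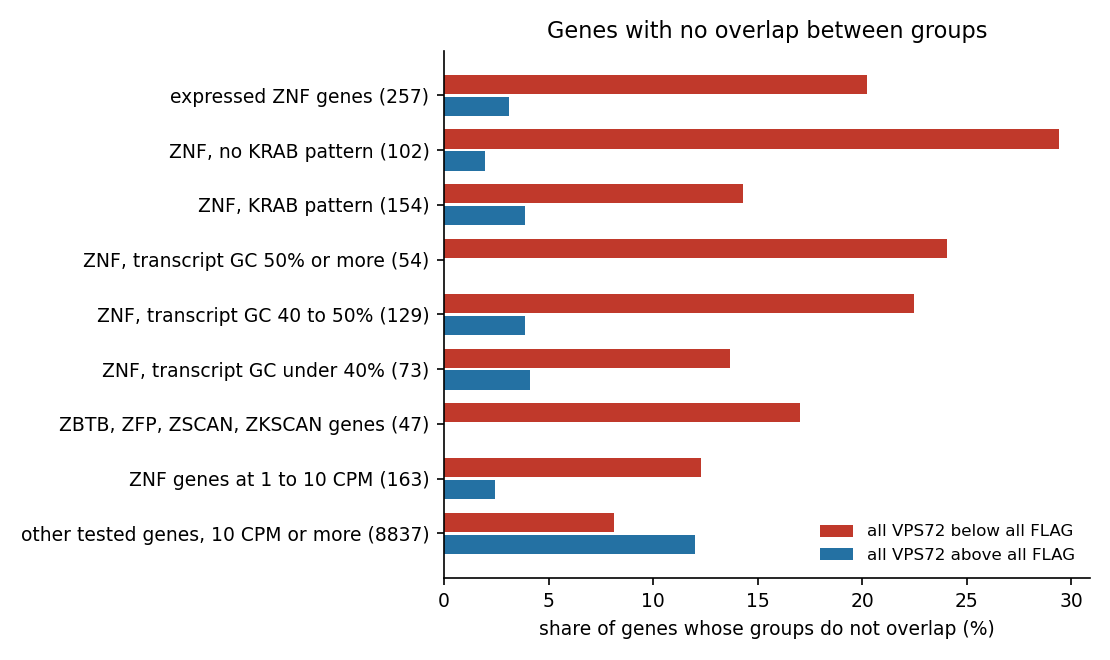
Share of genes with all VPS72 libraries below all FLAG libraries (upper bars) or above them (lower bars), with the number of genes in brackets. Lower genes outnumber higher ones in each zinc finger class shown, while other genes have 8.12% lower and 12.0% higher. The share lower is largest in members without a KRAB pattern, at 29.4%, with 1.96% higher.

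Neighbouring members did not all lie low. In the RefSeq gene order (GRCh38.p14), 174 members had another ZNF gene among the 2 protein-coding genes on either side, with a median of -4.32%, and 78 had none, with a median of -3.43%. There were 11 runs of at least 5 members with at most 2 other protein-coding genes between them, holding 88 members. The run from ZNF615 to ZNF888 held 17 members, 12 of them below 0, and that from ZNF264 to ZNF772 held 8, with 6 below 0. In the run from ZNF737 to ZNF257, only 4 of 12 members were below 0, with a median log2 fold change of 0.02, and in that from ZNF736 to ZNF92 only 1 of 6, with a median of 0.04. The other 9 runs had medians from -0.12 to -0.03. The summed level of the ZNF737 to ZNF257 run was 514, 501 and 523 CPM in VPS72 and 503, 516 and 500 CPM in FLAG libraries, which overlap. The median transcript GC of these 2 runs was 37.3% and 34.8%. The run from ZNF724 to ZNF254, at 36.7%, had a median log2 fold change of -0.06. In some runs the summed level was lower in all VPS72 than in all FLAG libraries. These were ZNF605 to ZNF268, ZNF266 to ZNF562, ZNF724 to ZNF254, ZNF224 to ZNF235 and ZNF264 to ZNF772. The summed levels of the other runs overlapped between groups.

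The corepressor machinery of KRAB proteins had a median of 0.721%. All 20 genes of that list were tested by edgeR, 0 passed, 1 was higher and 0 lower at an unadjusted p of 0.05, and 9 were below 0. Of all genes tested 6.03% were higher and 5.51% lower at that p. TRIM28, the scaffold that KRAB boxes bind, averaged 278 ± 5.66 CPM in VPS72 and 275 ± 5.26 CPM in FLAG libraries, and SETDB1 32.1 ± 1.98 CPM in VPS72 and 32.2 ± 2.06 CPM in FLAG libraries (SD, n = 3 each; edgeR, adjusted p = 0.945 and 0.995). The HP1 gene CBX3, MORC2 of the HUSH silencing pathway and HDAC1 were higher without overlap and CHD4 lower. Their adjusted p ran from 0.343 to 0.620 by edgeR. Of other genes of at least 10 CPM, 12.0% were higher and 8.12% lower without overlap. The 3 higher and 1 lower among 20 were close to these shares. The summed level of the list was 2476 to 2492 CPM of the column total in VPS72 and 2476 to 2514 CPM in FLAG libraries.

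The 47 expressed genes with ZBTB, ZFP, ZSCAN or ZKSCAN symbols had a median of -4.26%, with 39 of 47 below 0, 8 (17.0%) lower and 0 higher without overlap, beside 8.12% lower and 12.0% higher of other genes of that level. By edgeR 0 of them passed, and 8 were lower and 0 higher at an unadjusted p of 0.05, beside 5.51% lower and 6.03% higher of all genes tested. The 163 tested ZNF symbols at 1 to 10 CPM had a median of -5.28%, with 106 below 0, 20 (12.3%) lower and 4 (2.45%) higher without overlap. The 3467 other genes tested at 1 to 10 CPM had a median of -3.67%, with 2061 below 0, 8.97% lower and 3.55% higher. The ZNF symbols of that level thus had the lower median, with a larger share lower and a smaller share higher without overlap. By edgeR 0 of the 163 passed, and 13 were lower and 1 higher at an unadjusted p of 0.05. Of the 3467 other genes of that level, 182 were lower and 52 higher at that p.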

How the data were processed

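RNA sequencing libraries of Huh7 cells were analysed, 3 with VPS72 and 3 with the FLAG control, grouped by sample title. The authors deposited 1 table of estimated counts per gene symbol, as whole numbers and not normalized. Per the submitters' processing notes STAR, RSEM and limma and the builds hg19 and hg38 were used, with no role, order or version given. Per the labels' protocols RNAzol was used for RNA and the KAPA RNA HyperPrep kit for libraries. A counter such as RSEM shares reads out among similar transcripts, which makes near-identical ZNF paralogs less certain.

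Genes were filtered with filterByExpr by group (minimum count 10, minimum total 15), scaled by TMM and tested with edgeR's quasi-likelihood test (edgeR 4.0.16, R 4.3.3) over 14253 genes, at a Benjamini-Hochberg adjusted p of 0.05. CPM per library and group overlap use TMM-scaled library sizes. The SE is the size of the log2 fold change divided by the square root of F. The tests were checked on simulated data. There 29.9% of changes of 1.2-fold, 71.6% of 1.5-fold and 79.7% of 2-fold were recovered, with 8 false calls among 13855 unchanged genes. Changes smaller than 1.2-fold were not simulated. Libraries of a group differed by more than sampling noise, at a chi-square of 4.70 to 7.69 per degree of freedom. An exact permutation test of 3 against 3 libraries cannot give a p below 0.1.

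Transcript length, GC content, finger counts and KRAB patterns came from GENCODE 29 transcripts, since RefSeq proteins, which had been planned, were not used here. Finger and KRAB patterns miss diverged copies. Neighbours and promoter windows came from RefSeq GRCh38.p14, in which 256 of the 257 symbols were found.

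The members, gene lists and motifs were chosen with earlier results of these data known. Named were VPS72, members past the threshold, the 10 largest falls and up to 10 largest rises without overlap between groups, the 5 members with the highest CPM, those next to the 10 CPM level, and members of the role lists; CPM of each list's other members are summarised. The runs of neighbours named were chosen after their values were seen. Alternatives were other scalings, filters, tools (DESeq2 1.42.0, limma-voom 3.58.1), a replicate block, removal of trends with abundance or with GC content and length, other levels and thresholds, and each library left out.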

Additional observations from a re-analysis of the deposited data

How the results depend on the processing

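The median log2 fold change of the members was -0.059 and was below 0 in every alternative. It was -0.091 with library size alone, -0.031 with the GC content and length trend removed, -0.048 for members at 20 CPM or more, of which 105 were below 0, and -0.066 to -0.045 without single libraries, which gave 171 to 188 members below 0. Minus the median of all genes it ran from -0.066 to -0.041. No member rose in any alternative. The members that fell numbered 4 with library size alone, 5 without a filter on low counts, 5 with the GC content and length trend removed, 7 with DESeq2, which gave no adjusted p for 173 members, 0 at a threshold of 0.01 and 0 to 4 without single libraries. Genes changed in all numbered 88, against 264 without a filter, 249 with DESeq2, 396 with the GC content and length trend removed, 54 with the abundance trend removed, 32 at a threshold of 0.01 and 25 to 100 without single libraries. The cause was not tested. ZNF512B, at 202 to 330 counts a library, was not called despite the largest fold change.

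With the replicate number as a block 32 genes changed and 1 member, ZNF146, fell, while ZNF507 had an adjusted p of 0.0989 by edgeR. Same-numbered libraries correlated in their deviations by -0.049, 0.028 and 0.063, and not every library correlated best with its own number. No shared effect of the replicate number was thus seen. The labels state no pairing, and these correlations cannot show whether samples were handled in pairs. Small log2 fold changes turned sign. With library size alone these were ZNF445 (-0.0047) and TRIM28 (-0.019), with the abundance trend removed TRIM28 (-0.021) and SETDB1 (0.0024), with the GC content and length trend removed ZNF207 (0.0084) and SETDB1 (0.024), and for SETDB1 also without a filter (0.0014) and with limma-voom (0.0037). Without single libraries the range was -0.049 to 0.019 for ZNF207, -0.0069 to 0.061 for ZNF445, -0.10 to 0.038 for ZNF143, -0.00061 to 0.029 for TRIM28 and -0.055 to 0.046 for SETDB1.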

Other observations

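Besides ZNF146 and ZNF507, 7 members passed under at least 1 alternative. Of all genes, 249 changed with DESeq2, 264 without a filter and 396 with the GC content and length trend removed, against 88 in the main test. DESeq2 gave no adjusted p for 8566 of the 14253 genes, so its calls come from a smaller set. ZNF532, ZNF292, ZNF562, ZNF746 and ZNF121 passed with DESeq2, at Benjamini-Hochberg adjusted p of 0.00301, 0.00763, 0.0386, 0.0374 and 0.0371, and ZNF512B passed without a filter on low counts (edgeR, 0.0192) and with the GC content and length trend removed (edgeR, 0.0288). ZNF562 averaged 61.9 ± 1.39 CPM in VPS72 and 71.0 ± 2.79 CPM in FLAG libraries, and ZNF121, in the same run of neighbours, 77.4 ± 2.75 CPM in VPS72 and 87.9 ± 1.53 CPM in FLAG libraries (SD, n = 3 each). Their run, from ZNF266 to ZNF562, held 5 members with a summed level of 205, 199 and 196 CPM in VPS72 and 224, 225 and 219 CPM in FLAG libraries, which do not overlap. It was not the only run whose sums did not overlap. ZNF746, a KRAB protein called PARIS that represses PPARGC1A, averaged 34.8 ± 2.23 CPM in VPS72 and 41.7 ± 2.05 CPM in FLAG libraries. All members that passed under any alternative were lower in VPS72 libraries. The 4 transcribed pseudogenes and ZNF720, which was not matched by symbol in RefSeq, had a median of -6.71%, with 4 of 5 below 0 and all 5 overlapping between groups.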
